A study of Arabidopsis thaliana with 4 samples.

Results

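The pairs of 100 kb bins that join chromosome 1 with chromosome 2 of Arabidopsis thaliana were followed in a leaf and an endosperm contact map. There are 60085 such pairs among the 711028 pairs of different bins in the whole genome. Of these, 56933 pairs lay between bins with enough signal in both maps and were used. The pairs were divided at the north edges of 2 bins, chr1:22700001-22800000 and chr2:1500001-1600000 in TAIR10 coordinates, because the leaf map shows a junction there. These are called the split bins below, and their north edges the splits. The division makes 4 quadrants, named here by the side of chromosome 1 first: north with north (3180 used pairs), south with south (14014), north with south (38584) and south with north (1155). North is the side of low coordinates. The split positions and the choice of joined quadrants were read from these leaf values, so the contrast between joined and unjoined quadrants in leaf is a description and no test of it is given.

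The study compared chromatin contacts in 2 tissues by in situ Hi-C, in which crosslinked chromatin is cut and religated so that sequenced ligation products count how often 2 stretches of DNA lay together. The leaf samples came from 4-week-old plants and the endosperm samples from seeds; the age of the seeds was not given. All were wild type by label, F1 progeny of a cross of Columbia-0 with itself (Col_wt x Col_wt), with 2 biological replicates per tissue. The deposited matrices pool both replicates, so each tissue is 1 map, no test across replicates was possible, and whether both leaf replicates carry the junction cannot be told from them.

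Pieces of DNA on the same chromosome meet often when they are close and less often with distance, and in arms this decay is gradual. Pieces on different chromosomes meet at a low level that hardly depends on position, except that gene-poor pericentromeres meet each other and chromosome ends meet each other. Where DNA is joined in an order other than that of the reference, the map drawn on the reference order shows a corner of high contact that decays away from the join. Chromosome 2 has a short north arm, with the ribosomal RNA gene array known as a nucleolus organizer at its tip, and its pericentromere begins close to the split.

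The leaf map held 18557893 contacts and the endosperm map 25033672. Chromosomes 1 and 2 shared 1126395 of 11016342 interchromosomal contacts in leaf (10.2%) and 1425731 of 14590704 in endosperm (9.77%). Contact is given below as the mean balanced value of a set of pairs over the mean of the 9 other chromosome pairs of the same map, so that 1 is the ordinary level between chromosomes. Among the 9 other pairs leaf contact ran from 0.984 to 1.01, endosperm contact from 0.990 to 1.01, and the leaf over endosperm ratio from 0.977 to 1.02. Ranges in brackets are 95% counting intervals, which cover counting error only.

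The north with north and south with south quadrants stood above the ordinary level in leaf. The north with north quadrant averaged 1.45 in leaf and 1.03 in endosperm, a ratio of 1.42 (1.40 to 1.43). The south with south quadrant averaged 1.28 in leaf and 1.00 in endosperm, a ratio of 1.28 (1.27 to 1.28). The remaining quadrants were alike in both tissues: north with south averaged 0.988 in leaf and 0.986 in endosperm, and south with north 1.03 in leaf and 1.03 in endosperm. Within 2 Mb of the junction, with the distance counted from the split on each chromosome and added, the joined quadrants together reached 3.08 in leaf against 0.995 in endosperm, a ratio of 3.09 (3.01 to 3.18). Both corners were about equally strong there, at 3.09 for north with north and 3.07 for south with south in leaf.

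**Figure D1:**
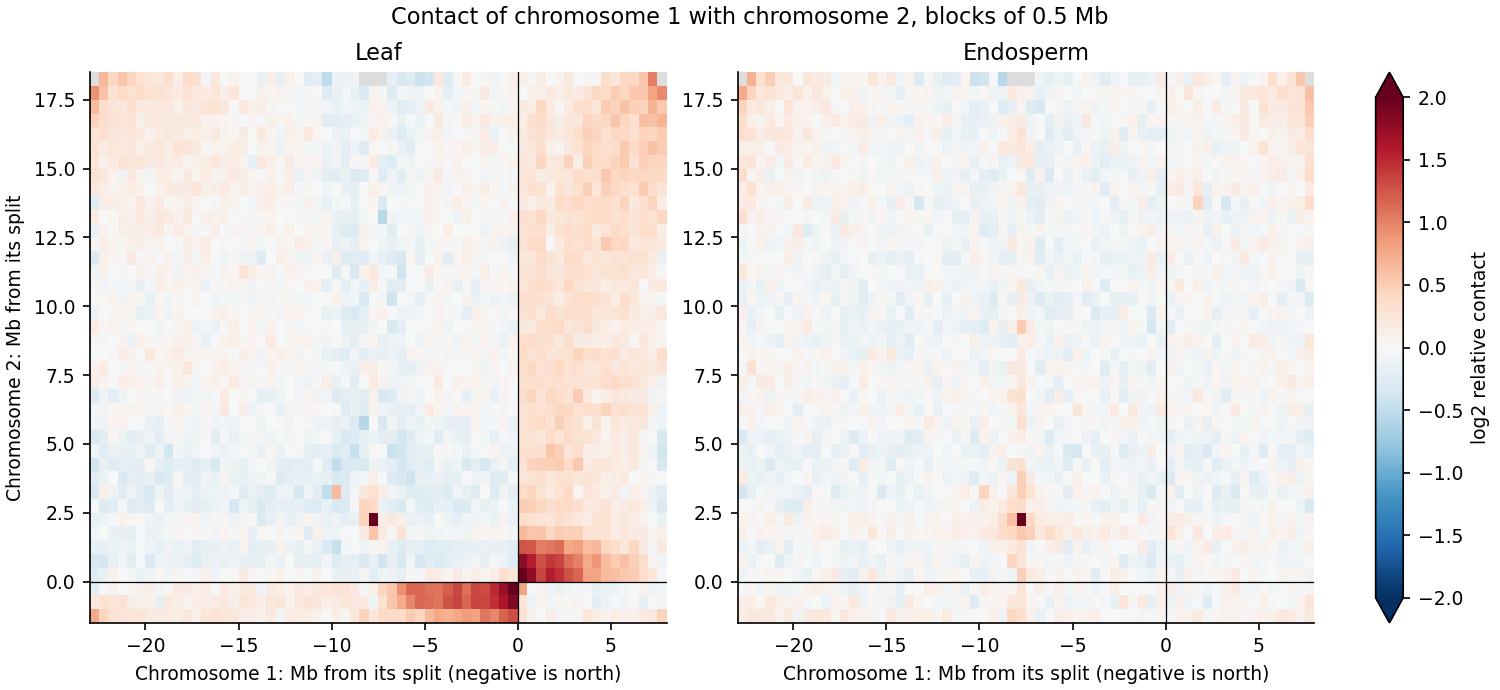
Relative contact of chromosome 1 (x axis, Mb from its split) with chromosome 2 (y axis, Mb from its split) in leaf (left) and endosperm (right), as log2 of the mean over blocks of 0.5 Mb, with colours limited to -2 and 2 and grey where too few pairs were used. The leaf map has 2 dark corners that meet at the crossing of the splits, and the endosperm map has none there.

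The highest contact of the joined quadrants was in the pair formed by both split bins. Its relative contact was 17.0 in leaf and 0.920 in endosperm. Its recovered count had a 95% Poisson interval of 287 to 358 contacts in leaf, and in endosperm 21 contacts were counted, with an upper limit of 32.1. It ranked 2 of 56933 pairs in leaf. The pair above it, chr1:15000001-15100000 with chr2:3600001-3700000, lies in pericentromeres, in an unjoined quadrant, and was high in both maps, at 31.8 in leaf and 17.2 in endosperm.

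Around this pair the highest contacts sat in the bins next to the splits. In the north with north quadrant the 5 highest leaf pairs had 4.99 to 6.60 in leaf and 0.566 to 1.42 in endosperm, and 4 of the 5 included the last bin of chromosome 1 before its split (chr1:22600001-22700000). In the south with south quadrant 3 more of the 5 highest pairs included the bin after the split bin (chr1:22800001-22900000), with partners in the split bin of chromosome 2 or the next 2 bins, and had 7.01 to 7.66 in leaf and 0.720 to 1.254 in endosperm. The other one was far away, between chromosome ends 25.8 Mb apart through the junction (chr1:30300001-30400000 and chr2:19600001-19700000), at 7.07 in leaf and 3.53 in endosperm.

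The bins just inside and outside the splits changed sides abruptly. On chromosome 1, the last bin north of the split contacted the 1.5 Mb of chromosome 2 north of its split at 4.17 in leaf and 1.02 in endosperm, and the 1.5 Mb of chromosome 2 south of its split bin at 0.877 in leaf and 1.06 in endosperm. The bin south of the split bin had the opposite pattern, with 0.870 in leaf and 1.08 in endosperm for the north stretch, and 3.98 in leaf and 0.956 in endosperm for the south stretch. The split bin itself contacted both stretches, at 2.84 in leaf and 1.09 in endosperm for the north one and 2.71 in leaf and 0.912 in endosperm for the south one. Its excess over 1 in leaf was thus 0.580 of that of its north neighbour for the north stretch and 0.572 of that of its south neighbour for the south stretch.

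Chromosome 2 showed the same change of partner. The last bin north of the split (chr2:1400001-1500000) contacted the 1.5 Mb of chromosome 1 north of its split at 4.08 in leaf and 1.104 in endosperm, and the stretch south of it at 0.805 in leaf and 0.982 in endosperm. The bin south of the split bin (chr2:1600001-1700000) contacted the north stretch at 1.00 in leaf and 1.12 in endosperm, and the south stretch at 3.75 in leaf and 1.05 in endosperm. The split bin again contacted both, at 2.01 in leaf and 0.985 in endosperm to the north and 3.03 in leaf and 1.07 in endosperm to the south, with excesses of 0.327 and 0.739 of those of its neighbours. In each tissue the contrast of joined minus unjoined contact was computed for splits at every pair of bins around the junction, over 10 bins on each side. The contrast was highest in leaf with the splits used here, at 2.57, against -0.0232 in endosperm.

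**Figure D2:**
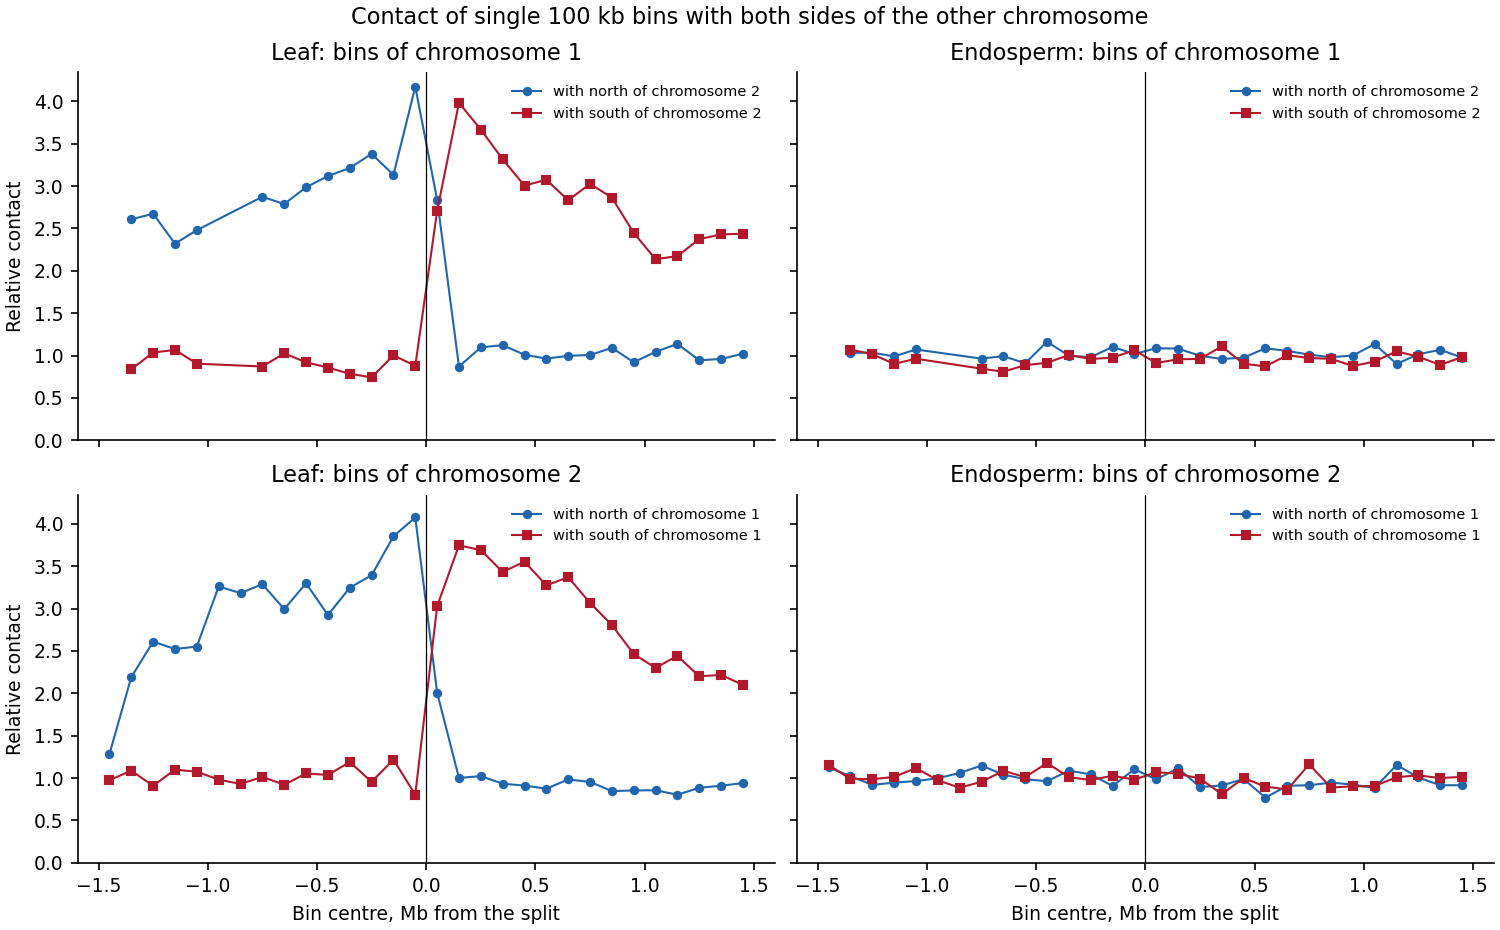
Relative contact of single 100 kb bins (y axis) by distance of the bin centre from the split (x axis, Mb), for chromosome 1 (top) and chromosome 2 (bottom), in leaf (left) and endosperm (right). In leaf the last bin of chromosome 1 before the split has 4.17 with the north side of chromosome 2, the split bin has intermediate contact with both sides, and the next bin has 3.98 with the south side; in endosperm both lines stay near 1.

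The split bins contain genes, which serve here only as marks of position. Of 28 protein-coding genes that overlap the split bin of chromosome 1 in the RefSeq gene table, 9 have a symbol, and the first 5 of these in order are LHCA3 (a light-harvesting protein of photosystem I), MLO6 (of the family named for mildew resistance), RALFL8 and RALFL9 (of the RALF family of small signal peptides) and TIM13 (of the import machinery of the mitochondrial inner membrane). The split bin of chromosome 2 overlaps 25 protein-coding genes, 7 with a symbol, beginning with LACS8 (a long-chain acyl-CoA synthetase), LCR82 (a small cysteine-rich protein), NUDT5 and NUDT6 (nudix hydrolases) and CPZ (a tRNase Z). The maps do not place the junction more finely than a bin, so no gene can be named as cut.

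Joined contact decayed with distance through the junction, near the level of arms for north with north and more steeply for south with south. In the north with north quadrant it was 4.63 in leaf against 1.07 in endosperm below 0.5 Mb, 2.75 against 1.02 at 1 to 2 Mb, and 2.14 against 0.999 at 3 to 5 Mb. At the same distances, pairs within the arms of chromosomes 3 to 5 had 5.16, 2.53 and 1.91 in leaf. The south with south quadrant was higher beside the junction and decayed faster, with 5.94 in leaf against 0.953 in endosperm below 0.5 Mb, 2.64 against 0.982 at 1 to 2 Mb, and 1.53 against 0.996 at 3 to 5 Mb, where arms had 1.89 in leaf. Its 15 pairs below 0.5 Mb include that of both split bins, at 17.0 in leaf. Without the split bins 6 pairs remained, at 5.97 in leaf against 0.913 in endosperm. Distances run from the north edges of the split bins, and where within these bins the join lies is not known.

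The decay exponent, fitted as a line through log10 contact against log10 distance between 0.5 and 5 Mb, was -0.306 in leaf (-0.329 to -0.283) for north with north. The 5 arms of chromosomes 3 to 5 long enough to be fitted had leaf slopes from -0.369 to -0.277, so this quadrant lay inside their range. The slope for south with south was -0.525 in leaf (-0.545 to -0.505), steeper than in any of those arms. Pairs of a pericentromere with the arm beside it on chromosomes 3 to 5, a comparison chosen after seeing the data, had leaf slopes from -0.700 to -0.500. They were fitted over the same distances. Of the 1265 pairs fitted for south with south, 1173 involve the pericentromere of chromosome 2 (1.7 to 6.7 Mb). Whether this bears on the slope was not tested. In endosperm the slopes of the joined quadrants were -0.0441 for north with north and 0.0338 for south with south, against -0.437 to -0.425 in its arms.

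**Figure D3:**
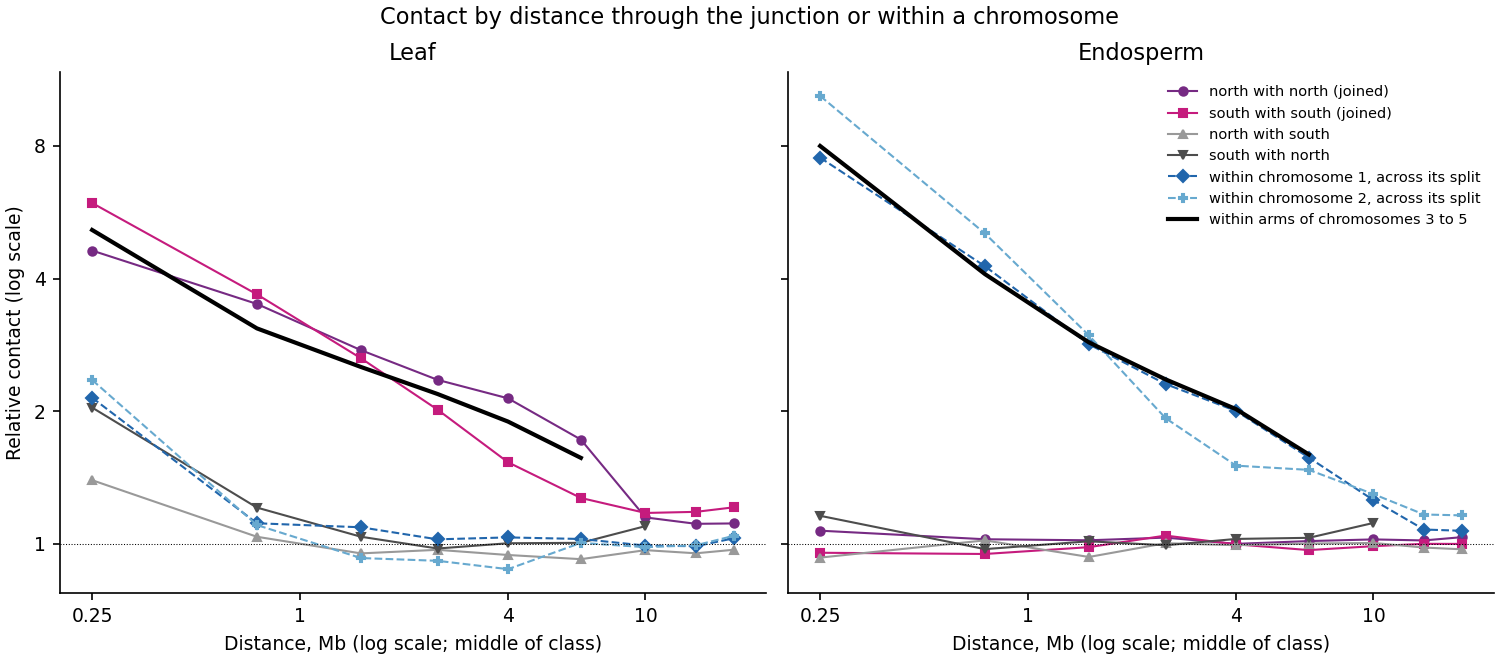
Relative contact (y axis, log scale) by distance (x axis, Mb, log scale, at the middle of each class) in leaf (left) and endosperm (right), for the 4 quadrants through the junction, for pairs of 1 chromosome across its split, and for arms of chromosomes 3 to 5 (black). In leaf north with north lies near the arms, south with south drops below them from 2 Mb on, and pairs across each split have 0.875 to 1.11 from 0.5 to 5 Mb. In endosperm pairs across the split of chromosome 1 lie near the arms, and those across the split of chromosome 2 fall below them, at 1.93 against 2.37 at 2 to 3 Mb.

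To set these values on 1 scale, the excess of contact over 1 was divided by the excess of the arms of chromosomes 3 to 5 at the same distances, from 0.5 to 5 Mb. This share of arm contact was 0.922 in leaf (0.907 to 0.938) and 0.00481 in endosperm for the joined quadrants together. It was 1.19 in leaf (1.16 to 1.22) for north with north, above each of the 5 arms (0.975 to 1.05). It was also above the share found when the outermost 1.5 Mb of those arms, a stretch as long as the chromosome 2 piece, was set against the rest of its arm, which ran from 0.861 to 1.12. For south with south the share was 0.784 in leaf (0.766 to 0.801), below the arms but in the range of pericentromeres with arms (0.529 to 0.801) and below that of the chromosome 2 pericentromere with its own south arm (0.844). The comparisons with outermost stretches and with pericentromeres were chosen after seeing the data. The shares depended on the reference: with all pairs within chromosomes 3 to 5 in place of arms the joined share was 1.05, and with endosperm arms it was 0.772.

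The unjoined quadrants had a leaf share of -0.0445 for north with south (-0.0576 to -0.0314) and 0.0158 for south with north (-0.000340 to 0.0320). Close to the junction they were higher, at 1.39 in leaf against 0.929 in endosperm below 0.5 Mb for north with south, and at 2.04 against 1.16 for south with north. Without the split bins, which contact both sides, these values were 0.945 in leaf against 0.963 in endosperm and 0.893 in leaf against 1.18 in endosperm. Farther out the north with south quadrant was slightly lower in leaf: at 5 to 8 Mb it had 0.922 in leaf and 1.00 in endosperm, a ratio of 0.922 (0.907 to 0.936).

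Pairs on 1 chromosome but on opposite sides of its split, which the rule does not contain, gave the reverse picture. Across the split of chromosome 1 the share of arm contact was 0.0383 in leaf (0.0248 to 0.0518) and 0.984 in endosperm (0.968 to 0.999). Across the split of chromosome 2 it was -0.0730 in leaf (-0.0885 to -0.0574) and 0.821 in endosperm (0.803 to 0.839). The leaf shares thus lay on opposite sides of 0, each beyond its counting interval. For both chromosomes together the leaf share was -0.00443 (-0.0147 to 0.00579), which averages these opposite values, and it ran from -0.0653 to 0.0422 over the alternatives tried. At 1 to 2 Mb the pairs of chromosome 1 had 1.09 in leaf against 2.84 in endosperm, and those of chromosome 2 had 0.927 in leaf against 2.97 in endosperm. With counts left unbalanced the leaf shares of the separate chromosomes changed sign, to -0.176 for chromosome 1 and 0.108 for chromosome 2, and both stayed far under those of the joined quadrants. These pairs come from the same leaf map and the same splits, so they are another view of it and not a separate experiment.

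**Figure D4:**
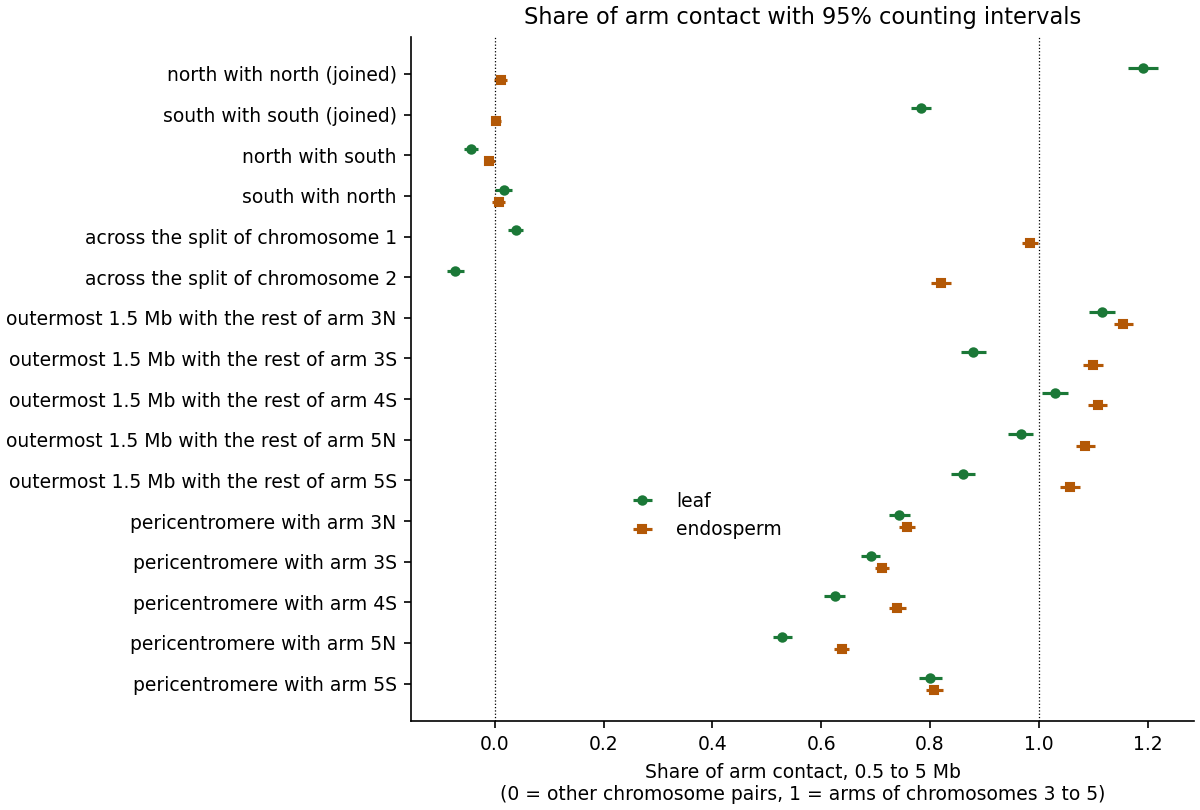
Share of arm contact from 0.5 to 5 Mb (x axis) for each quadrant, for pairs across each split, and for 2 kinds of pairs on chromosomes 3 to 5 (rows), in leaf (circles) and endosperm (squares), with 95% counting intervals. The joined quadrants have leaf shares of 1.19 and 0.784 and endosperm shares near 0, and the pairs across the splits have leaf shares near 0 and endosperm shares of 0.984 and 0.821.

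The excess reached far beyond the corner. Reach was taken as the distance up to which the lower counting limit of the leaf over endosperm ratio stayed above 1 in each class of 1 Mb. It was 18 Mb for north with north, where the farthest pair lay 24.1 Mb through the junction, and it covered all 26 classes of south with south, where the farthest pair lay at 25.8 Mb. Most of the distance was covered by a small excess: its lower limit stayed above 1.5 to 7 Mb for north with north and to 4 Mb for south with south, and above 2 to 4 Mb for north with north and to 2 Mb for south with south. The north with north ratio itself was still 2.06 at 4 to 5 Mb (1.97 to 2.15) and 2.05 at 5 to 6 Mb (1.965 to 2.15). Reach for north with north was 8 Mb when either split was moved 1 bin north and 7 Mb without balancing. Unbalanced values of this quadrant lean on the tip of chromosome 2 (chr2:1-100000). That bin held 37599 of its 99296 endosperm contacts and 15541 of its 83795 leaf contacts. Whether the bin bears on the shorter reach was not tested. In the unjoined north with south quadrant the lower limit was also above 1 in 15 of 41 classes, and the upper limit was below 1 in 10. Its ratio was 1.07 (1.05 to 1.09) at 31 to 32 Mb and 1.17 (1.08 to 1.27) at 40 to 41 Mb. An excess as small as that of north with north past 8 Mb was thus also seen in an unjoined quadrant, but at greater distances. At equal distance north with south had no excess, with ratios of 0.963 (0.953 to 0.974) at 8 to 12 Mb and 0.970 (0.961 to 0.979) at 12 to 16 Mb. North with north had 1.12 (1.09 to 1.16) and 1.09 (1.06 to 1.12) there.

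Between 8 and 20 Mb the leaf level changed little. North with north had 2.02 in leaf against 0.985 in endosperm at 5 to 6 Mb, 1.36 against 1.03 at 7 to 8 Mb and 1.18 against 1.07 at 8 to 9 Mb, and its leaf contact lay between 1.07 and 1.20 from 9 to 20 Mb. South with south stood at 1.17 in leaf against 0.987 in endosperm at 8 to 12 Mb and at 1.21 against 0.998 at 16 to 20 Mb. Pairs within chromosomes 3 to 5 at the same distances had 1.17 in leaf at 8 to 12 Mb and 1.20 at 16 to 20 Mb. Toward the chromosome ends leaf contact was higher again. In south with south it was 1.26 in leaf against 1.04 in endosperm at 20 to 21 Mb, and 2.20 against 1.48 at 25 to 26 Mb, with ratios of 1.21 and 1.49. In north with north the ratio was 1.00 at 19 to 20 Mb, and at 23 to 24 Mb contact was 1.33 in leaf against 1.11 in endosperm, a ratio of 1.20 (1.12 to 1.28).

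**Figure D5:**
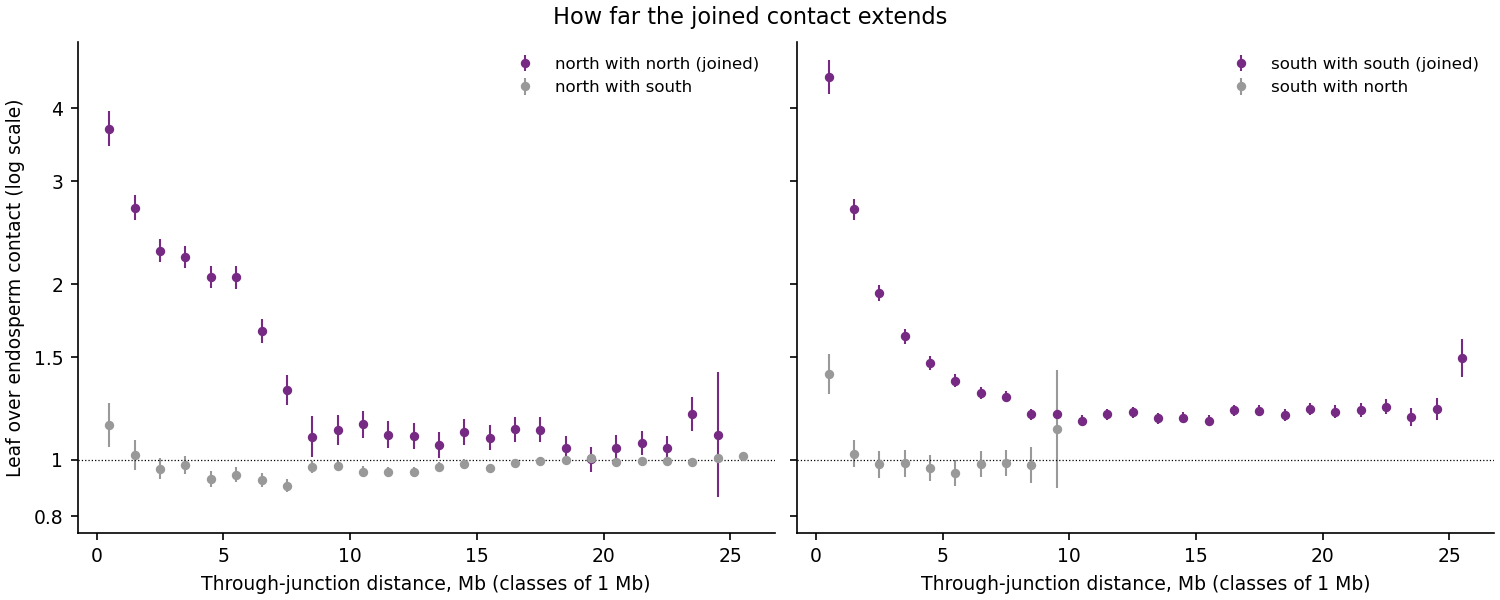
Leaf over endosperm contact (y axis, log scale) in classes of 1 Mb of through-junction distance (x axis), with 95% counting intervals, for quadrants with the north side of chromosome 1 (left, up to 26 Mb) and with its south side (right). Joined quadrants (purple) are at 3.69 and 4.53 in the first class and between 1.00 and 1.49 past 8 Mb. Unjoined quadrants (grey) stay near 1 after the first class in the range drawn, and the north with south classes past 26 Mb are not drawn.

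Along chromosome 1 the contact with the north piece of chromosome 2 was highest in the arm beside the split. The arm between pericentromere and split had 2.29 in leaf and 1.01 in endosperm, the pericentromere (12.9 to 16.9 Mb) 1.32 in leaf and 1.04 in endosperm, and the north arm beyond it 1.12 in leaf and 1.03 in endosperm. Beside the junction the decay was steepest, and a further drop lay in the pericentromere: at 6 to 7 Mb through the junction, pericentromeric bins had 1.76 in leaf against 0.998 in endosperm and bins of the arm 1.66 against 1.06, while at 10 to 11 Mb pericentromeric bins had 1.08 against 1.03 and bins of the north arm 1.20 against 0.940. Equal distance pairs these regions with different bins of chromosome 2. Its tip, which had low leaf contact, was paired only with arm bins at 6 to 7 Mb and only with pericentromeric bins at 10 to 11 Mb. Whether this bears on these differences was not tested.

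Along chromosome 2 the contact with the south piece of chromosome 1 was 2.15 in leaf and 1.05 in endosperm in the small stretch of arm before the pericentromere. It was 1.37 in leaf and 0.974 in endosperm in the pericentromere, and 1.23 in leaf and 1.01 in endosperm in the south arm. At equal distance this order did not hold throughout. At 5 to 6 Mb the pericentromere had 1.33 in leaf (1.30 to 1.36) against 0.975 in endosperm. The south arm, with 36 pairs there, had 1.23 (1.15 to 1.32) against 0.929, so the leaf intervals overlapped. At 9 to 10 Mb the south arm was higher in leaf, at 1.24 (1.22 to 1.27) against 0.974 in endosperm. The pericentromere there had 1.07 (1.04 to 1.09) against 0.973.

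Averaged over all their pairs in a joined quadrant, single bins had 0.796 to 1.27 times the leaf contact of their distance class. In the north with north quadrant, chr1:15900001-16000000 in the pericentromere stood highest, at 1.27 times its class in leaf and 0.940 in endosperm, and the tip of chromosome 2 (chr2:1-100000) lowest, at 0.809 in leaf and 1.13 in endosperm. Near the junction the tip departed more. With the 1.5 Mb of chromosome 1 north of its split the tip had 1.28 in leaf and 1.12 in endosperm. The next bin south of it had 2.19 in leaf and 1.02 in endosperm. Among 259 bins of south with south the 3 highest lay between 1.9 and 2.3 Mb of chromosome 2, at 1.18 to 1.20 in leaf and 0.971 to 1.07 in endosperm. The 3 lowest lay between 3.6 and 4 Mb of the same chromosome, at 0.796 to 0.815 in leaf and 0.955 to 1.18 in endosperm. The first of these, chr2:3600001-3700000, also belongs to the pair with the highest contact in leaf. Over its 77 pairs it held 14810 leaf contacts, against 1357 in chr2:3800001-3900000 and 1349 in chr2:3900001-4000000. The tip of chromosome 2 was also rich in counts, with 15541 in leaf and 37599 in endosperm over 212 pairs. Whether the high counts bear on the departures of these bins was not tested.

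In blocks of 1 Mb by 1 Mb, leaf contact was at least 1.5 times that of endosperm in 10 of 38 blocks of north with north and in 10 of 144 of south with south. No block of north with south (396) or south with north (15) passed that fold. Over all 10 chromosome pairs 0.37% of 5679 blocks passed, and over the 9 others 0.0197% of 5086, which is 1 block. The splits were chosen on this contrast, so the difference in shares is a description.

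Chromosome ends were compared as the 5 outermost bins with signal. The joined ends had more contact in leaf: the north ends of chromosomes 1 and 2 had 1.502 in leaf and 1.14 in endosperm (ratio 1.32, 1.19 to 1.46), and the south ends 2.39 in leaf and 1.47 in endosperm (ratio 1.62, 1.49 to 1.77). Both joined pairs of ends together had 1.94 in leaf and 1.31 in endosperm, a ratio of 1.49. Without balancing they had 1.93 in leaf and 1.78 in endosperm, a ratio of only 1.08. The recovered counts behind this differed between the ends. Over 25 pairs each, the north ends held 908 contacts in leaf and 1483 in endosperm, and the south ends 1057 in leaf and 929 in endosperm. An interchromosomal pair of bins held a mean of 20.4 in leaf and 27.2 in endosperm. In counts the south ends thus stayed higher in leaf, and the north ends did not. Ends that the junction does not join were higher in leaf too, at 2.13 in leaf and 1.72 in endosperm for chromosome 1 north with chromosome 2 south, and at 1.249 in leaf and 1.06 in endosperm for chromosome 1 south with chromosome 2 north. The 36 end pairs of the other chromosome pairs had ratios from 0.959 to 1.44 (median 1.18). The joined south ends lay above that range and the joined north ends inside it. Of these pairs, the 6 with the south end of chromosome 2 ran from 1.05 to 1.44 (median 1.34), so this end was higher in leaf with unjoined chromosomes too. The highest, with the south end of chromosome 3, had an interval of 1.31 to 1.59, which overlaps that of the joined south ends. The 6 with the south end of chromosome 1 ran from 1.07 to 1.26 (median 1.17). The opposite ends of a split chromosome had 2.01 in leaf and 1.965 in endosperm for chromosome 1, and 1.31 in leaf and 1.27 in endosperm for chromosome 2, with a ratio of 1.03 for each, whereas the opposite ends of chromosomes 3 to 5 had ratios of 1.21 to 1.40.

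Leaf coverage relative to endosperm, taken over whole segments, was alike on both sides of each split. Balancing removes differences in coverage, so recovered counts were used: the median leaf over endosperm ratio of counts per bin, scaled to chromosomes 3 to 5, was 1.00 north and 1.01 south of the split on chromosome 1, and 1.01 north and 1.00 south of it on chromosome 2. The middle 50% of bins in these segments ran from 0.980 to 1.02, and chromosomes 3 to 5 themselves had medians of 0.988 to 1.00. Coverage itself was lower north of the chromosome 2 split in both maps. Relative to chromosomes 3 to 5, its median count per bin was 0.917 in leaf and 0.923 in endosperm there. South of that split it was 0.998 in leaf and 0.996 in endosperm.

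With chromosomes 3 to 5 the 4 segments kept near the ordinary level. The north piece of chromosome 2 had 1.02 in leaf and 1.06 in endosperm with them, a ratio of 0.959 (0.953 to 0.965), the lowest of the 4, and the south piece of chromosome 1 had 1.02 in leaf and 1.01 in endosperm. Counted in the reference order, the part of the balanced signal of chromosomes 1 and 2 that lay within a chromosome was 31.4% in leaf and 35.5% in endosperm. Leaf minus endosperm was -4.09 percentage points, against -2.77 to -2.53 on chromosomes 3 to 5. With the leaf segments counted in their joined order the leaf value was 32.3% and the difference from endosperm in the reference order was -3.22 points.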

How the data were processed

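Hi-C contact signal was deposited by the authors as 4 matrices, 1 per tissue at 100 kb and 1 at 200 kb, balanced by iterative correction per the file names and pooled over both replicates. Per the submitters' processing notes, the tools were Bowtie2 and HiC-Pro 2.9.0 and the build was TAIR10. The restriction enzyme and read filters: not given in the sources used here.

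Whole counts were recovered from the deposited signal, since each balanced value is a count times 1 factor per bin: 100% of pairs came out whole within 0.01. Bins with values for under 50% of other bins were left out. Balanced values were divided by the mean of the 9 chromosome pairs other than 1 with 2. Counting intervals (95%) take Poisson counts with the balancing factors kept. Ligation products are not independent molecules, so these intervals cover counting error only. Ends were the 5 outermost bins with signal; pericentromeres and arms followed protein-coding gene cover in a RefSeq table of assembly TAIR10.1, with pericentromeres where a 1 Mb running mean stayed under 0.5 of the chromosome median. Of the arms of chromosomes 3 to 5, the 5 with at least 30 bins were used.

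With 1 pooled map per tissue there is no test, and no p-value is given. The splits, quadrants, members and gene lists were chosen with earlier results of these data known. Regions named were the split bins and their neighbours, the 5 highest leaf pairs of each joined quadrant, the 3 highest and 3 lowest bins against their distance class, and pericentromeres and ends; genes named were the first 5 with a symbol in each split bin. The pair ranked first in leaf was looked up after the values were seen. Computations, in Python 3.11.15 with numpy 2.4.6, scipy 1.17.1 and pandas 2.3.3, were tested on simulated data. Alternatives changed the resolution, balancing, split positions, bins, references, distance windows and limits.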

Additional observations from a re-analysis of the deposited data

How the results depend on the processing

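No paired analysis was possible because the deposited matrices pool the replicates of each tissue, and for the same reason no replicate could be left out. The leaf over endosperm ratio stayed above 1 under each alternative run for joined contact within 2 Mb (2.05 to 4.10) and for the means of north with north (1.12 to 1.45) and south with south (1.21 to 1.28); for slopes and shares the alternatives were run on leaf alone. For the joined ends the ratio ran from 1.08, without balancing, to 1.49. Values below are for leaf. With 200 kb matrices the joined contact within 2 Mb was 2.77, the quadrant means 1.42 (north with north) and 1.27 (south with south), the slope -0.418, the joined share 0.843, the share across the splits 0.0422 and the joined ends 1.68. Without balancing these were 2.49, 1.29, 1.13, -0.365, 1.04, -0.0653 and 1.93, with a reach of 7 Mb for north with north. In that quadrant the tip of chromosome 2 held 15541 of 83795 contacts in leaf and 37599 of 99296 in endosperm, which weighs on its unbalanced values. The shares across the splits turned to -0.176 on chromosome 1 and 0.108 on chromosome 2, and the cause was not tested. Without the split bins the slope was -0.479, the joined share 0.945 and the share across the splits -0.0267. With the chromosome 1 split 1 bin north, the contact within 2 Mb was 2.94, north with north 1.44, the slope -0.434, the share across the splits 0.0315 and the reach 8 Mb. With the chromosome 2 split 1 bin north they were 2.96 for contact within 2 Mb, -0.442 for the slope, 0.897 for the joined share, 0.0136 across the splits and 8 Mb for the reach; 1 bin south gave 2.97, 1.44 for north with north and 0.898 for the joined share. Without repeat bins, those with over 3 times the median count, the values were 3.14 within 2 Mb, 1.48 and 1.29 for the quadrants and 0.977 for the joined share. All 10 chromosome pairs as the base gave 1.44 and 1.27 for the quadrants. Contact was 4.07 within 1 Mb and 2.06 within 5 Mb. The slope from 0.3 to 2 Mb was -0.409. The joined share was 0.938 with arms of chromosomes 3 and 5, 1.05 with all pairs of chromosomes 3 to 5, and 0.772 with endosperm arms. Against references chosen after seeing the data, north with north had 1.23 times the excess of the outermost 1.5 Mb of arms, and south with south 1.15 times that of pericentromeres with arms. Reach for north with north was 8 Mb at a limit 10% above endosperm, 7 Mb at 25% above, 25 Mb against the leaf interchromosomal mean and 8.5 Mb in classes of 0.5 Mb; for south with south it was 8 Mb at 25% above. At limits of 1.5 and 2, chosen after seeing the data, it was 7 and 4 Mb for north with north and 4 and 2 Mb for south with south. Joined ends of 1 Mb had 1.54. Blocks past the fold in the joined quadrants numbered 20, against 69 at a fold 25% above endosperm, 9 at a fold of 2 and 78 with blocks of 0.5 Mb. At this depth an interchromosomal pair of bins held a mean of 20.4 contacts in leaf and 27.2 in endosperm, which limits what single pairs can show, and the junction is placed no more finely than 100 kb.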
